A study of Mus musculus with 32 samples.

Results

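Bmp10, a bone morphogenetic protein made by atrial muscle cells, was used to tell the atria of dnPI3K-Mst1 double transgenic mice apart. Within each of 4 animals the array with Bmp10 above 9 log2 was taken as Bmp10-high and the other as Bmp10-low, whatever side the label gave, so 8 of the 32 arrays of the series entered. The comparison is the paired difference, Bmp10-high minus Bmp10-low, in the same animal. The dnPI3K-Mst1 mice carry a dominant negative form of phosphoinositide 3-kinase (PI3K) and the kinase Mst1 together. The other genotypes, with 4 animals and 8 arrays each, were mice with Mst1 alone, mice with dnPI3K alone and non-transgenic controls (Ntg). All were on a mixed background of the inbred strains C57BL/6 and FVB/N and fed standard chow, and neither age, sex nor the promoter that drives each transgene is labelled. Total RNA from 1 atrium was hybridised to each Affymetrix Mouse Gene 1.0 ST array, which reads transcripts with probes along their length. Values are log2 signals, in which 1 unit is a 2-fold difference, and a level of 1 gene cannot be set against that of another. In whole atria, fewer cells of a type and less RNA per cell cannot be told apart.

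The atria differ in origin and in make-up. The right atrium receives the great veins and holds the sinoatrial node, the heart's pacemaker, while the left receives the pulmonary veins, and each has its own share of muscle, endocardium, valve tissue, nerves, fat, lymphatics and immune cells. Bmp10 signals through receptors on endothelial cells and in the adult mouse is known as a gene of right atrial muscle. Mst1 belongs to the Hippo kinase cascade, whose activity keeps the growth coactivator YAP out of the nucleus, and PI3K passes on growth and survival signals such as that of insulin.

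Bmp10 stood at 12.30, 12.23, 12.60 and 12.39 log2 in the Bmp10-high arrays of animals 1509, 1647, 1649 and 1650, against 4.84, 4.68, 4.11 and 4.09 in their Bmp10-low arrays. The values nearest to the threshold of 9 were 12.23 on the upper side and 4.84 on the lower, so no array lay close to it. Bmp10 chose the groups and was not tested. In all 4 animals the Bmp10-high array is the one labelled left and the Bmp10-low array the one labelled right, so the comparison is also that of the labelled sides, left minus right. Over the series the Bmp10-high array is labelled left in 13 of 16 animals and right in 3. All 4 dnPI3K animals and 3 of 4 Mst1 animals have it labelled left, and in Ntg it is labelled left in 2 and right in 2. The groups are called by their Bmp10 level throughout.

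Stk4, the gene of Mst1, read 8.22 to 8.51 log2 in the Bmp10-high and 8.12 to 8.37 in the Bmp10-low arrays of dnPI3K-Mst1 mice, above the 7.34 to 7.77 and 7.30 to 7.71 of Ntg. It did not pass the test between the atria (0.10 ± 0.08 log2, SE, adjusted p = 0.88), nor did Pik3ca, the catalytic PI3K subunit (0.11 ± 0.08, adjusted p = 0.87). All 8 arrays carried RNA of atrial muscle. Nppa, the atrial natriuretic peptide, read 13.40 to 13.53 log2 in Bmp10-high and 13.45 to 13.52 in Bmp10-low arrays, and the atrial light chain Myl7 11.96 to 12.22 and 12.14 to 12.38. The medians of the 8 arrays lay between 5.59 and 5.68 log2, and their mean correlation with the other 31 arrays of the series was 0.9773 to 0.9803 except in the Bmp10-low array of animal 1647, at 0.9738. Lower values occurred in Bmp10-high arrays of the other genotypes, at 0.9488 in Mst1 animal 1466, 0.9601 and 0.9684 in dnPI3K animals 3241 and 1507 and 0.9688 in Ntg animal 1662. These arrays were kept in the tests between genotypes.

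Single Bmp10-low arrays stood apart in genes of other cell types. That of animal 1650 read 8.93 log2 for Ucp1, the brown fat uncoupling protein, where the other 7 arrays read 4.27 to 4.68, and its 12 adipocyte markers summed to 6091 linear signal units, against 1307 to 2089 in the other 7 arrays. That of animal 1647 read 10.22 for the haem-degrading enzyme Hmox1, 9.88 for the macrophage gene Mpeg1 and 7.73 for the monocyte receptor Ccr2, while the other 7 arrays read at most 7.23, 7.99 and 6.14. The summed signal of 29 macrophage and monocyte markers was 6990 to 8201 in Bmp10-high arrays and 4961 to 11506 in Bmp10-low arrays, the highest being animal 1647. That of animal 1509 had the highest sum of 14 mesothelial markers, 2969 against 1689 to 2421 in the other 7 arrays. Their part in the results was not tested except where values without an animal are given.

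The first question was which genes tell the atria of the double transgenic apart. Limma, with the animal as a block and Benjamini-Hochberg adjustment over 15218 genes, called 168 at an adjusted p under 0.05, which is 1.1% of those tested. The calls were even in direction, with 85 higher in Bmp10-high atria (0.559%) and 83 lower (0.545%). Large differences were few, since 15 genes were higher and 9 lower by 2-fold or more. All 85 were higher in 4 of 4 animals and all 83 lower in 4 of 4, and in 144 of the 168 the Bmp10-high and Bmp10-low arrays did not overlap, as in 581 of all 15218 genes tested. At an unadjusted p under 0.05 there were 1264 genes, and the median difference of all genes was 0 log2. Many calls rested on animal 1509: 57 genes were called without it, all among the 168, and 97 without animal 1649, 89 without 1650 and 201 without 1647. With 1647 and 1650, whose Bmp10-low arrays held inflammatory and fat genes, both left out, 448 genes were called on the 2 other pairs, 154 of them among the 168. These animals were chosen after their values were seen, and 1509, with the highest mesothelial sum, was kept. A fit on 2 pairs says little about each gene's own spread, so the larger count does not show that the omitted arrays hid differences. Replicates here are separate animals, and their number limits the precision.

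**Figure D1:**
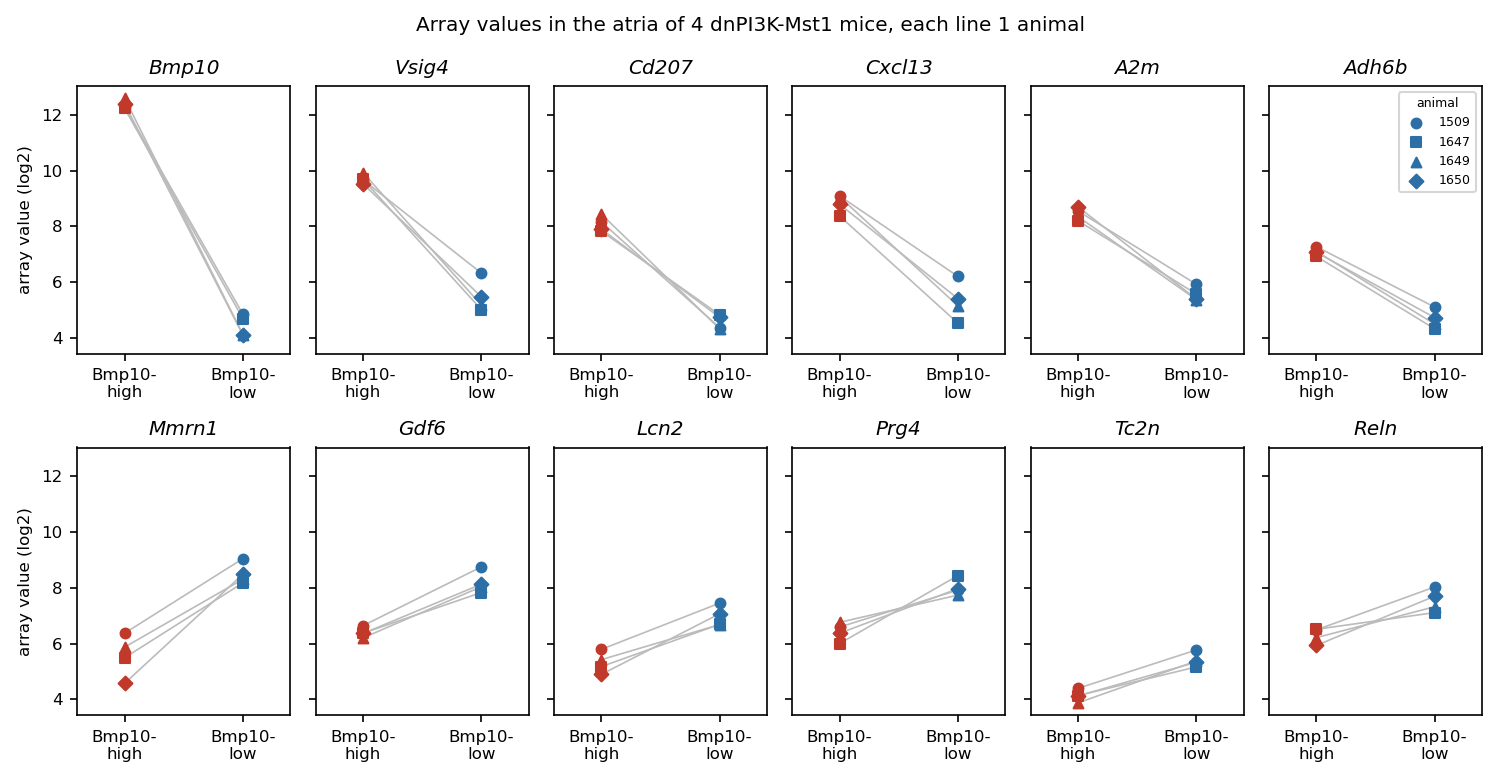
Array values (log2) of Bmp10 and 11 other genes in the Bmp10-high (red, left) and Bmp10-low (blue, right) atria of 4 dnPI3K-Mst1 mice, with a line and a symbol for each animal. Bmp10 sits between 12.23 and 12.60 in the Bmp10-high arrays, against 4.09 to 4.84 in the Bmp10-low arrays, and the groups do not overlap for any of the 12 genes.

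The largest differences among the genes higher in Bmp10-high atria were immune and secreted. Vsig4, a complement receptor of resident macrophages, read 9.67, 9.69, 9.93 and 9.53 log2 in the Bmp10-high arrays of animals 1509, 1647, 1649 and 1650, against 6.32, 5.01, 5.17 and 5.47 in the Bmp10-low arrays. The groups do not overlap, and the difference was 4.22 ± 0.20 (SE, 18.6-fold, adjusted p = 9.7e-06). Cd207, the langerin of Langerhans and other dendritic cells, read 8.16, 7.83, 8.44 and 7.90 against 4.36, 4.82, 4.32 and 4.73 in the Bmp10-low arrays (3.53 ± 0.17, adjusted p = 9.7e-06). Cxcl13, the chemokine that attracts B cells, read 9.09, 8.37, 9.06 and 8.79 against 6.20, 4.52, 5.14 and 5.40 (3.52 ± 0.16, adjusted p = 8.5e-06). Each was high in every Bmp10-high array, also beside the inflammatory Bmp10-low array of 1647, which had the lowest Vsig4 and Cxcl13 of all. A2m, the protease inhibitor alpha-2-macroglobulin, read 8.20 to 8.70 in the Bmp10-high arrays against 5.37 to 5.92 in the Bmp10-low arrays (2.89 ± 0.12, 7.42-fold, adjusted p = 6.8e-06). The alcohol dehydrogenases Adh6b and Adh1 moved with it. Adh6b read 6.92 to 7.27 against 4.32 to 5.10 (2.44 ± 0.10, adjusted p = 6.8e-06), and Adh1, which can oxidise retinol, 9.49 to 9.78 against 7.69 to 9.06 (1.24 ± 0.15, adjusted p = 0.005). The calcium buffer parvalbumin, Pvalb, and the cell-surface peptidase Dpp4 were higher by 1.23 ± 0.12 and 1.05 ± 0.14 (adjusted p = 0.0018 and 0.0068), again with no overlap. Without animal 1649 the Adh1 difference was 1.17 with an adjusted p of 0.052.

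Some other macrophage markers passed the test, where 0.559% of all genes were called higher and 0.545% lower. Of 29 tested macrophage and monocyte markers 3 were called higher and 0 lower: Vsig4, the haemoglobin scavenger receptor Cd163 (0.97 ± 0.15 log2, adjusted p = 0.014) and Timd4, a receptor for dying cells found on long-lived resident macrophages (0.74 ± 0.09, adjusted p = 0.005). Csf1r, the growth factor receptor common to macrophages, was at 0.43 ± 0.15 (adjusted p = 0.41), and the list's median was 0.10 log2, against 0 for all genes. With animal 1647 left out 5 members were higher, and with 1647 and 1650 left out 9 were higher and 1 lower. Cd163 missed the threshold without animal 1509 (0.98, adjusted p = 0.08). Other genes of myeloid cells were also called: Clec4f, the lectin known from Kupffer cells of the mouse liver (1.23 ± 0.16, adjusted p = 0.0058, or 0.057 with no replicate block), and the leukocyte integrin Itgal (1.06 ± 0.14, adjusted p = 0.0056). In the other direction Mgl2, a lectin of dendritic cells and alternatively activated macrophages, read 5.21 to 5.60 in Bmp10-high against 6.16 to 6.74 in Bmp10-low arrays (-1.04 ± 0.08, adjusted p = 0.00052). Pla2g2d, a secreted phospholipase of dendritic cells, differed by -1.09 ± 0.12 (adjusted p = 0.0024). Myeloid genes thus lay on both sides of the comparison. The 12 T and B lymphocyte markers had 1 call in each direction, Cxcl13 and Thy1, and a median of 0.02 log2.

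**Figure D2:**
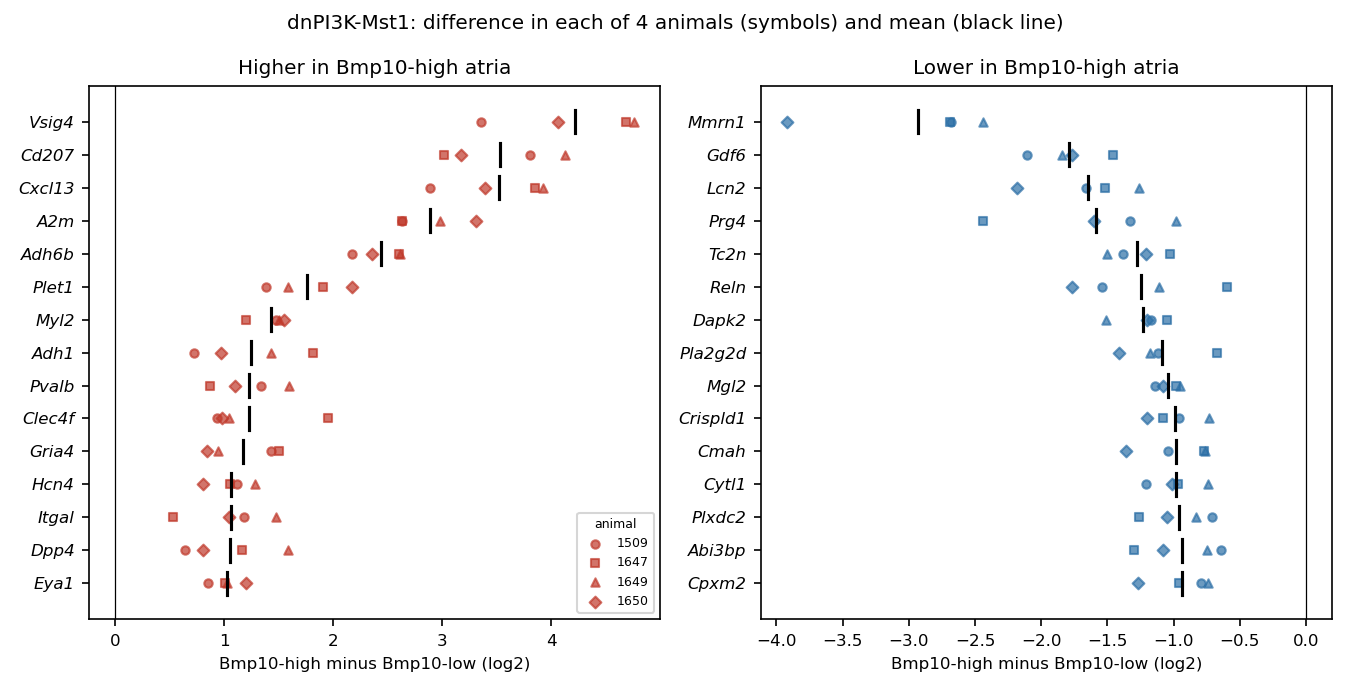
Bmp10-high minus Bmp10-low (log2) for the 15 called genes with the largest positive mean difference (left panel) and the 15 with the largest negative (right panel), with 1 symbol for each of 4 dnPI3K-Mst1 animals and a black line at the mean. Every symbol lies on its gene's side of 0, from Vsig4 at a mean of 4.22 to Mmrn1 at -2.93, and Mmrn1 is spread most widely among the lower genes.

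Genes of lymphatic vessels were lower in Bmp10-high atria. Of 6 tested lymphatic endothelial markers 4 were called lower and 0 higher, against 0.545% lower among all genes, and the list's median was -0.74 log2. Mmrn1, a multimerin of lymphatic endothelium, read 6.37, 5.49, 5.87 and 4.57 log2 in the Bmp10-high arrays of animals 1509, 1647, 1649 and 1650, against 9.05, 8.18, 8.31 and 8.49 in the Bmp10-low arrays (-2.93 ± 0.20, adjusted p = 0.00019). Animal 1650 has the lowest Bmp10-high value, and the arrays of the 2 atria do not overlap. Reln, the reelin secreted by lymphatic endothelium, read 5.93 to 6.51 against 7.11 to 8.03 (-1.25 ± 0.16, adjusted p = 0.0061). Flt4, the lymphatic VEGF receptor, differed by -0.85 ± 0.09 (adjusted p = 0.0025), and Pdpn, podoplanin, which mesothelium also makes, by -0.63 ± 0.09 (adjusted p = 0.013). The remaining members did not pass: Lyve1, also a gene of resident macrophages, at -0.23 ± 0.14 (adjusted p = 0.78) and Prox1, also a gene of heart muscle, at -0.13 ± 0.10 (adjusted p = 0.88). The summed signal of the 6 was 900 to 1072 in Bmp10-high and 1333 to 2188 in Bmp10-low arrays, animal 1509 being highest. Without 1509 there were 2 calls, as Reln (-1.16, adjusted p = 0.051) and Pdpn (-0.58, adjusted p = 0.12) fell short, and without 1650 Pdpn did (-0.56, adjusted p = 0.066).

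Some genes of valve and cartilage-like matrix were lower. Of 14 tested 3 were called lower and 0 higher, against 0.545% lower among all genes, and the median was -0.19 log2. Prg4, the lubricating proteoglycan lubricin, read 6.59, 6.00, 6.76 and 6.37 in the Bmp10-high arrays of animals 1509, 1647, 1649 and 1650, against 7.92, 8.44, 7.74 and 7.97 in the Bmp10-low arrays (-1.59 ± 0.19, adjusted p = 0.0041, or 0.07 with a robust variance model). Cytl1, a secreted protein of cartilage, read 9.37 to 10.23 against 10.34 to 11.13 (-0.98 ± 0.09, adjusted p = 0.0013). Neither gene's arrays overlap between the atria, and the summed signal of the 14 was 5652 to 6752 in Bmp10-high and 7475 to 8725 in Bmp10-low arrays. The collagen-binding proteoglycan fibromodulin, Fmod, differed by -0.67 ± 0.11 (adjusted p = 0.025) and was called without 1647 but not without 1509, 1649 or 1650 (adjusted p = 0.18, 0.13 and 0.12). Other secreted or membrane proteins were lower by a similar amount, with arrays that do not overlap: the cysteine-rich secretory protein Crispld1 at -0.99 ± 0.09 (adjusted p = 0.0014) and the plexin-domain protein Plxdc2 at -0.96 ± 0.10 (adjusted p = 0.0023). Gdf6, a growth factor of the BMP family with roles in joints and cartilage, was the second largest difference in this direction. It read 6.64, 6.37, 6.20 and 6.36 in Bmp10-high arrays against 8.75, 7.83, 8.04 and 8.13 in Bmp10-low arrays (-1.79 ± 0.11, adjusted p = 6.3e-05).

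The wider matrix had calls in both directions. Of 50 tested collagen and matrix genes 2 were higher, 2 were lower and 29 had an unadjusted p under 0.05. Among all 15218 genes 168 were called (1.1%) and 1264 had an unadjusted p under 0.05. The matrix list's median was -0.29 log2, with 22 members lower and 3 higher in 4 of 4 animals. The calls were Tnxb, tenascin X (0.66 ± 0.12, adjusted p = 0.037), Ogn, mimecan (0.40 ± 0.08, adjusted p = 0.047), Fmod and the short-chain collagen Col8a1 (-0.70 ± 0.13, adjusted p = 0.038). Leaving out any of the 4 animals ended the call on Ogn (adjusted p = 0.065 to 0.42), and leaving out 1509, 1649 or 1650 that on Tnxb (0.13, 0.052 and 0.15) and Col8a1 (0.089, 0.15 and 0.11). Among 17 fibroblast markers Dpep1, a dipeptidase, was higher (0.72 ± 0.08, adjusted p = 0.0024), and Pi16, of perivascular fibroblasts, and the surface protein Thy1 were lower (-0.73 ± 0.08 and -0.81 ± 0.08, adjusted p = 0.0025 and 0.0019). Abi3bp, a matrix protein, was lower by 0.94 on the log2 scale (adjusted p = 0.0041). The BMP and TGF-beta list of 37 genes had 0 higher and 2 lower, Bmp4 (-0.83 ± 0.08, adjusted p = 0.0015) and the activin subunit Inhba (-0.63 ± 0.08, adjusted p = 0.0056). Inhba fell short without animal 1509 (-0.64, adjusted p = 0.058).

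**Figure D3:**
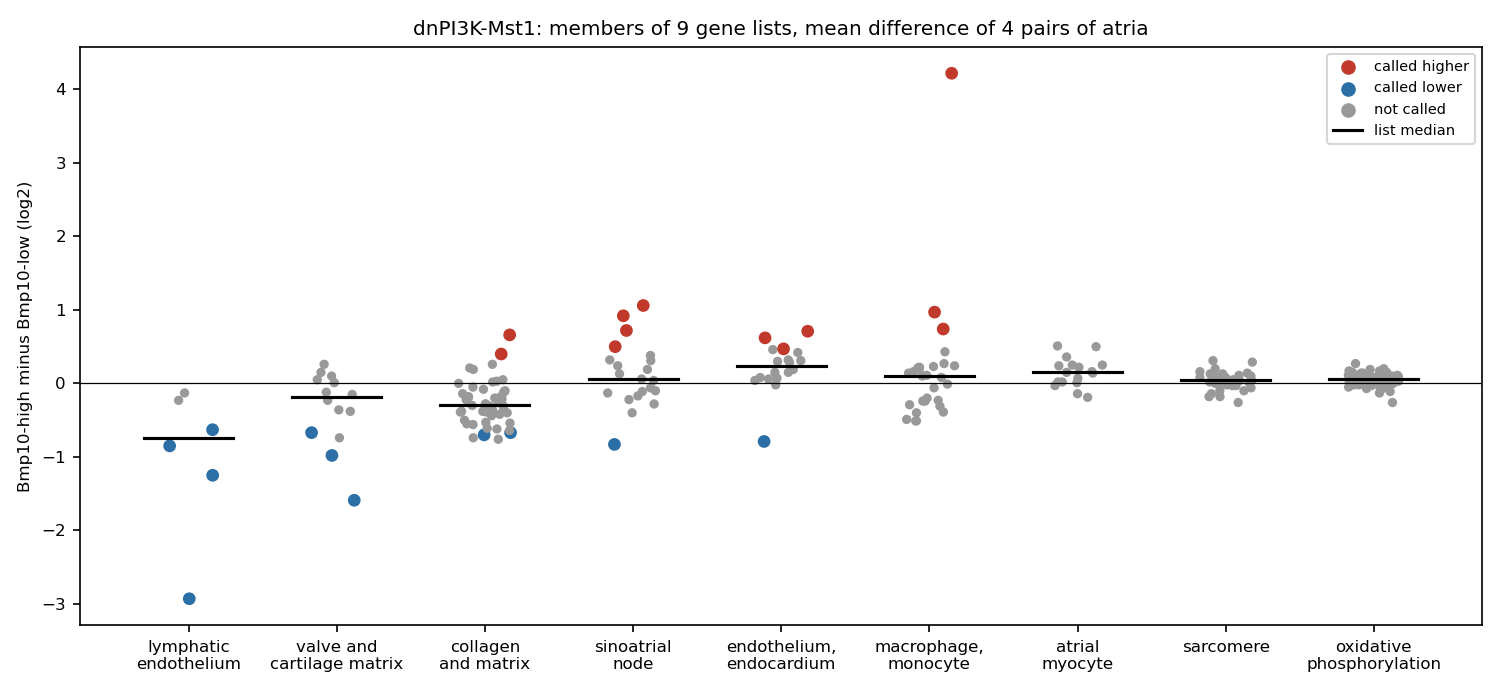
Bmp10-high minus Bmp10-low (log2, mean of 4 pairs of atria from dnPI3K-Mst1 mice) for every tested member of 9 gene lists, with called genes in red (higher) or blue (lower) and a black line at each list's median. Lymphatic members lie below 0 with a median of -0.74, while sarcomere and oxidative phosphorylation genes stay close to 0.

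Some pacemaker genes were called. Of 21 tested sinoatrial node markers 4 were higher and 1 lower, against 0.559% higher and 0.545% lower among all genes. The list's median was 0.06 log2. Hcn4, the channel of the pacemaker current, read 6.50, 6.36, 6.54 and 6.27 log2 in the Bmp10-high arrays of animals 1509, 1647, 1649 and 1650, against 5.38, 5.31, 5.26 and 5.47 in the Bmp10-low arrays (1.06 ± 0.10, 2.09-fold, adjusted p = 0.0013). Vsnl1, a calcium sensor of node cells, read 6.69 to 7.04 against 5.37 to 6.23 (0.92 ± 0.13, adjusted p = 0.0094). Cacna1d, the calcium channel of pacemaking, differed by 0.72 ± 0.09 (adjusted p = 0.0046), and Shox2, a transcription factor of the node, by 0.50 ± 0.09 (adjusted p = 0.038). Shox2 was near the floor of the array, at 4.73 to 4.92 against 4.19 to 4.52. Bmp4 was the lower member. Isl1 (0.06 ± 0.11, adjusted p = 0.97), Tbx3 (0.31 ± 0.10, adjusted p = 0.33) and Tbx18 (0.13 ± 0.10, adjusted p = 0.88), transcription factors of the node, did not pass. Vsnl1 fell short without 1509 or 1649 (adjusted p = 0.067 and 0.069) and Shox2 without any of the 4 animals (0.073 to 0.19), so that 2 members were higher without 1509 or without 1649. The summed signal of the 21 was 4703 to 5035 in Bmp10-high and 4739 to 5524 in Bmp10-low arrays. The node lies in the right atrium, and these genes were higher in the arrays labelled left.

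A few genes known for the side of the heart were called, where 1.1% of all genes were. Of 10 tested left-sided identity genes 1 was higher, Pcsk6, a protease that matures Nodal-type signals in the embryo, at 9.29, 8.84, 8.84 and 8.87 log2 in Bmp10-high against 8.51, 7.99, 8.27 and 8.30 in Bmp10-low arrays (0.69 ± 0.08, adjusted p = 0.004, but 0.058 without animal 1509). Of 15 tested genes of right atrial and sinus venosus identity, Bmp10 left out, Shox2 was higher and the transcriptional cofactor Lbh lower (-0.51 ± 0.08, adjusted p = 0.021). Lbh fell short without 1509 (adjusted p = 0.21) or 1649 (0.072). The lists' medians were 0.08 and 0.02 log2.

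Some other channel genes were called. Among 39 ion channel and gap junction genes 4 were higher and 1 lower, with a median of 0.03 log2. Of all genes 0.559% were called higher and 0.545% lower. Beyond Hcn4 and Cacna1d these were Abcc9, the sulphonylurea receptor SUR2 of ATP-sensitive potassium channels (0.69 ± 0.09, adjusted p = 0.0051), the T-type calcium channel Cacna1h (0.68 ± 0.10, adjusted p = 0.014) and, in the other direction, the calcium-activated potassium channel Kcnn3 (-0.55 ± 0.09, adjusted p = 0.029). Hrc, a histidine-rich protein that buffers calcium in the sarcoplasmic reticulum, was the 1 called member of 20 calcium handling genes (0.63 ± 0.10, adjusted p = 0.019). Without 1509 all 4 fell short (Abcc9 0.061, Cacna1h 0.084, Kcnn3 0.19, Hrc 0.16), as did Cacna1h, Kcnn3 and Hrc without 1650 (0.082, 0.13 and 0.086) and Kcnn3 without 1649 (0.14). Contractile genes hardly figured among the calls. Limma called 0 of 33 sarcomere genes (2 with an unadjusted p under 0.05) and 0 of 17 atrial myocyte markers (5), and Tbx5, Nppb and Myh7 stood at 0.02, 0.02 and 0 log2 with adjusted p of 0.99, 0.99 and 1. A contractile gene outside these lists was called, Myl2, the ventricular light chain, which read 6.35, 5.67, 5.91 and 6.19 in Bmp10-high arrays against 4.88, 4.47, 4.41 and 4.64 in Bmp10-low arrays (1.43 ± 0.09, adjusted p = 0.00014). Myl2 was the 1 called gene of 10 ventricular markers, and with the spread shared over all 16 animals its adjusted p was 0.66. Its difference varied widely between single animals elsewhere, from -1.97 to 3.41 log2 in Ntg and from 0.49 to 6.31 in dnPI3K. In Mst1 mice the range was -0.02 to 0.81.

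Some endothelial and endocardial genes were called, where 0.559% of all genes were called higher and 0.545% lower. Of 18 endothelial and endocardial markers 3 were higher and 1 lower, with a median of 0.24 log2. They were the clotting factor Vwf (0.71 ± 0.13, adjusted p = 0.041), the natriuretic peptide clearance receptor Npr3 (0.62 ± 0.11, adjusted p = 0.027), the VEGF receptor Flt1 (0.47 ± 0.09, adjusted p = 0.041) and, lower, the water channel Aqp1 (-0.79 ± 0.11, adjusted p = 0.0092). Their summed signal was 17751 to 18252 in Bmp10-high and 12859 to 17217 in Bmp10-low arrays. These calls were fragile. Vwf fell short without 1649 or 1650 (adjusted p = 0.20 and 0.18), Npr3 without 1509, 1649 or 1650 (0.067, 0.082 and 0.089), Flt1 without any of the 4 (0.072 to 0.19) and Aqp1 without 1509 or 1650 (0.067 and 0.063). The count of higher members was 1 without 1509, 3 without 1647, 0 without 1649 and 0 without 1650, and 6 with 1647 and 1650 both left out. Hey1, a Notch target of arteries and atrial muscle, read 6.68 to 7.13 against 5.75 to 6.51 (0.72 ± 0.10, adjusted p = 0.0088, but 0.051 without 1509). Acta2, smooth muscle actin, differed by 0.89 ± 0.15 (adjusted p = 0.028) and fell short without 1509 (1.00, adjusted p = 0.062) and 1650 (0.88, adjusted p = 0.14). Among secreted peptides Adm, the vessel-relaxing adrenomedullin, was higher (0.84 ± 0.09, adjusted p = 0.0022). The Wnt modulator Sfrp2 was also higher (0.53 ± 0.09, adjusted p = 0.026), but not without 1509 or 1650 (0.16 and 0.10).

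No gene on the lists of energy supply passed the test. Among all 15218 genes 168 were called (1.1%) and 1264 had an unadjusted p under 0.05. At that share of calls, a count of 0 or 1 in lists of this size says little about them. Limma called 0 of 67 oxidative phosphorylation genes, 0 of 31 fatty acid oxidation genes, 0 of 23 Krebs cycle genes and 0 of 26 glycolysis genes, with 2, 0, 0 and 0 members at an unadjusted p under 0.05. The medians were 0.06, 0.03, 0.07 and -0.02 log2. Hippo pathway genes had 0 of 25 called (2 with an unadjusted p under 0.05), heat shock genes 0 of 20 (0) and cell cycle genes 0 of 24 (0). Igfbp3, an insulin-like growth factor binding protein and YAP target, was the 1 call among 30 PI3K and insulin genes and among 23 YAP targets (0.72 ± 0.09, adjusted p = 0.0055), and it fell short without 1509 (0.69, adjusted p = 0.065). Fat and mesothelium markers had 0 calls of 12 and 0 of 14, with 2 and 4 members at an unadjusted p under 0.05. The 24 markers of intracardiac neurons and Schwann cells also had 0 calls (8 with an unadjusted p under 0.05). Lcn2, the iron-binding lipocalin of acute inflammation, was the 1 called member of 16 iron handling genes, at 4.89 to 5.79 in Bmp10-high against 6.68 to 7.45 in Bmp10-low arrays (-1.65 ± 0.14, adjusted p = 0.00052).

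The second question was whether the other mice show the same differences. The 85 genes called higher had the same sign in 98.8% in Mst1 mice, 76.5% in dnPI3K and 87.1% in Ntg, where 36.5%, 38.6% and 50.7% of all genes were above 0. The 83 called lower had the same sign in 97.6%, 83.1% and 84.3%, where 63.5%, 61.4% and 49.3% of all genes were below 0. These animals had no part in the calls. A fit on 4 pairs called 320 genes in Mst1 (2.1%), 517 in dnPI3K (3.4%) and 752 in Ntg (4.94%). Of the genes called higher in dnPI3K-Mst1, 53 were called higher in Mst1 too (62.4% of the 85 and 38.4% of the 138 of Mst1), 37 in dnPI3K (43.5% and 20.2%) and 43 in Ntg (50.6% and 10.8%). Of those called lower, 60 were shared with Mst1 (72.3% of the 83 and 33% of its 182), 41 with dnPI3K (49.4% and 12.3%) and 32 with Ntg (38.6% and 9.01%). The sign was opposite with a call in both for 0, 4 and 5 of the higher and for 0, 2 and 3 of the lower genes. Vsig4 illustrates the shared part: it differed by 4.22 log2 in dnPI3K-Mst1, 4.32 in Mst1, 3.75 in dnPI3K and 3.70 in Ntg.

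The difference between genotypes was then tested itself, as the Bmp10-high minus Bmp10-low difference in dnPI3K-Mst1 minus that in each other genotype, over all 32 arrays. Against Mst1 alone limma called 1 gene (0.00657%), with 649 at an unadjusted p under 0.05. It was Atp6v0a4, a proton pump subunit, at -0.45 log2 in dnPI3K-Mst1 and -1.83 in Mst1, a difference of 1.38 (adjusted p = 0.00014). Its arrays read 5.62 to 6.09 in Bmp10-high and 6.10 to 6.53 in Bmp10-low atria of dnPI3K-Mst1, against 5.18 to 5.62 and 7.05 to 7.60 in Mst1. Without dnPI3K-Mst1 animal 1647 the count was 2. A single call does not show that the other genes differ alike in both genotypes. Against dnPI3K alone 162 genes were called (1.06%), 112 with a higher and 50 with a lower difference in dnPI3K-Mst1, and 102 without dnPI3K-Mst1 animal 1649. Against Ntg 152 were called (0.999%), 64 higher and 88 lower.

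**Figure D4:**
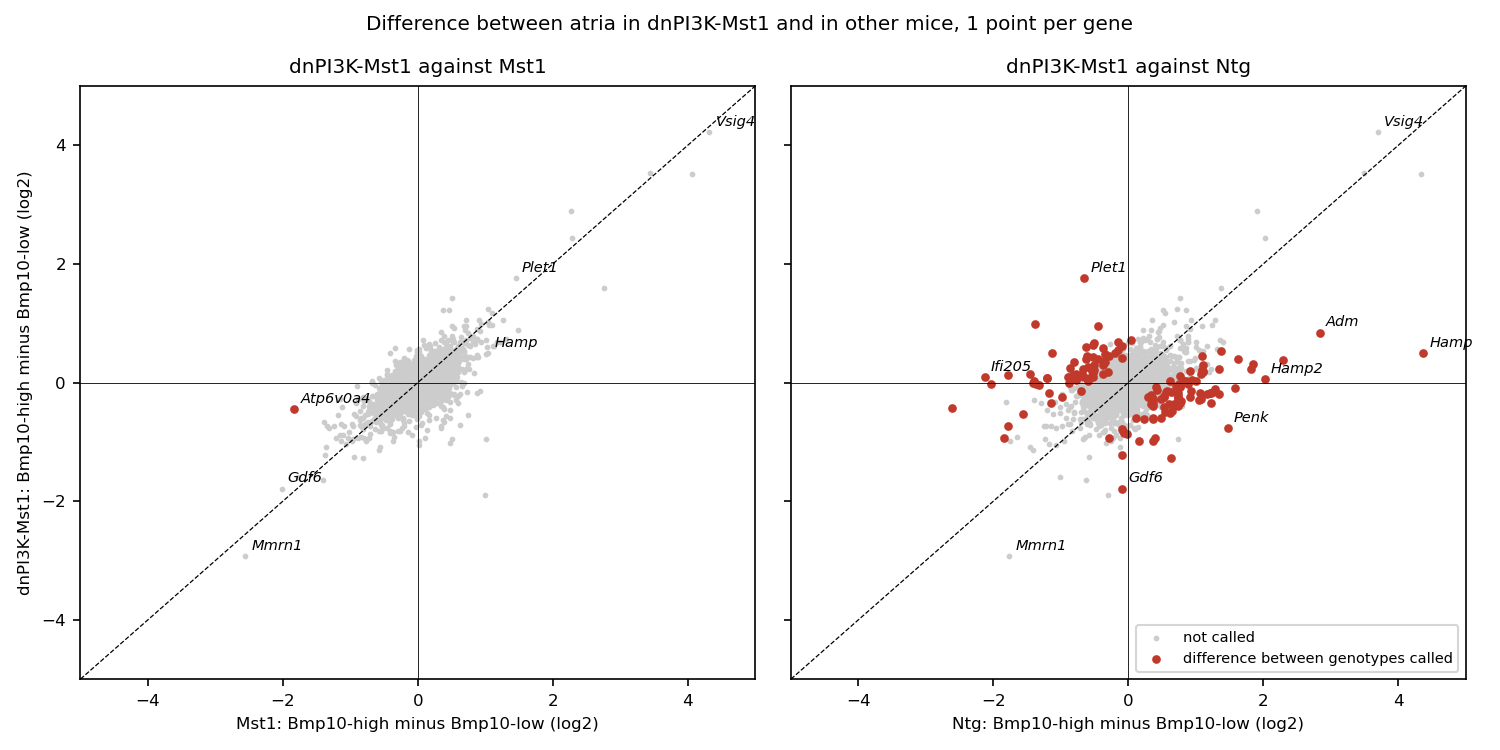
Bmp10-high minus Bmp10-low (log2) of 15218 genes in dnPI3K-Mst1 mice (vertical) against Mst1 mice (left panel, horizontal) and Ntg mice (right panel, horizontal), with a dashed line where both are equal and genes with a called difference between genotypes in red. The panel against Mst1 has 1 red point, Atp6v0a4, and that against Ntg has 152, among them Hamp at 0.50 in dnPI3K-Mst1 and 4.37 in Ntg.

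Many of the 152 genes that set dnPI3K-Mst1 apart from Ntg differed less between the double transgenic atria. In 110 the direction was opposite, in 34 it was the same with a smaller size in dnPI3K-Mst1 and in 8 the same with a larger size, and the median size was 0.27 log2 in dnPI3K-Mst1 and 0.70 in Ntg. The genes were selected on this difference, so these counts describe them only. Of the 152, 110 were called between the atria in Ntg and not in dnPI3K-Mst1. The labels matter here, because in Ntg the Bmp10-high array is labelled left in 2 animals and right in 2. With arrays split by labelled side the Ntg pairs enter with opposite signs, and 0 genes were called (427 at an unadjusted p under 0.05). With only animals whose Bmp10-high array is labelled left 61 were called.

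Hepcidin was the largest case. Hamp encodes the iron-regulating hormone hepcidin, which the heart makes as well as the liver, and Hamp2 is its duplicate in the mouse. Both lie on chromosome 7, and their promoters are shown because these paralogs moved together in Ntg. Probes may read both genes, which makes the assignment of signal to either uncertain. Probe and transcript sequences were not compared, and the likeness of the promoters does not bear on this. The 250 bases before each start in RefSeq (GRCm38.p6, minus strand, chr7:30944030-30944279 for Hamp and chr7:30924182-30924431 for Hamp2) are given 5′ to 3′, with capitals at GGCGCC, the core of a BMP-responsive element of hepcidin promoters, and at TTCTTGGAA, a STAT-type motif.
Hamp: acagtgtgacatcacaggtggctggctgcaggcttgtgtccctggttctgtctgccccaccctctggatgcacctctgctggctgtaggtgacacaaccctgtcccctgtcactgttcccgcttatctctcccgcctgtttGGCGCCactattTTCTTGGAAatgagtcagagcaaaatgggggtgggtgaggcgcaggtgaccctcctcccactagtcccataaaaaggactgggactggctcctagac
Hamp2: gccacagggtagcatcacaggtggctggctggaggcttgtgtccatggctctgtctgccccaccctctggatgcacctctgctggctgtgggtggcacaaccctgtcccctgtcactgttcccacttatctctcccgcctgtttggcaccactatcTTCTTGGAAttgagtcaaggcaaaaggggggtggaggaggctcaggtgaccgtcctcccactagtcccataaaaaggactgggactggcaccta
The stretches are identical at 227 of 253 aligned positions (89.7%). GGCGCC is found in Hamp and not in this window of Hamp2, and on either strand in 9.59% of 32851 such windows of 250 bases. TTCTTGGAA is in both and in 0.365% of the windows. A match describes the letters and shows no binding.

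Hamp read 8.86, 9.09, 8.98 and 9.56 log2 in the Bmp10-high arrays of dnPI3K-Mst1 mice, against 8.53, 7.77, 9.23 and 8.99 in their Bmp10-low arrays, which overlap. The difference between the atria was 0.50 ± 0.20 log2 and did not pass (adjusted p = 0.51). In Ntg mice Hamp read 10.45, 10.50, 11.12 and 11.02 against at most 6.71 in the Bmp10-low arrays of 3 animals and 7.0 in that of 1301, a difference of 4.37. The genotypes thus differed by -3.87 (adjusted p = 7.4e-06), and the double transgenic values lay between those of the Ntg atria. In dnPI3K mice the difference between the atria was 2.42 (dnPI3K-Mst1 minus dnPI3K -1.93, adjusted p = 0.0099, but 0.058 without dnPI3K-Mst1 animal 1649) and in Mst1 mice 1.04 (-0.55, adjusted p = 0.99). Hamp2 differed by 0.06 ± 0.11 in dnPI3K-Mst1 and 2.02 in Ntg (-1.96, adjusted p = 0.0032). In the animals with Bmp10-high labelled left the Hamp2 value was -1.62 (adjusted p = 0.056).

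A transcription factor and some node markers were among these genes. Tbx20, a T-box factor of heart muscle, read 10.54 to 10.69 in Bmp10-high and 10.36 to 10.83 in Bmp10-low atria of dnPI3K-Mst1 mice, against 9.93 to 10.32 and 8.93 to 9.43 in Ntg (-0.98, adjusted p = 7.3e-05). All 8 double transgenic arrays read above the highest of the 8 Ntg arrays. Of the 21 sinoatrial markers 5 had a lower difference than in Ntg and 0 a higher one, as did 88 and 64 of all 15218 genes. They were Cacna2d2, a calcium channel subunit (-1.91, adjusted p = 4.6e-05), Cpne5 (-1.53, adjusted p = 9.3e-05), Rgs6, a regulator of muscarinic signalling (-0.91, adjusted p = 0.0019), the growth factor binding protein Igfbp5 (-1.38, adjusted p = 0.0012) and Slitrk6 (-1.14, adjusted p = 0.014). The 4 node markers called higher within dnPI3K-Mst1 were not among them. In dnPI3K-Mst1 and Ntg these stood at 1.06 and 0.35 for Hcn4, 0.92 and 0.47 for Vsnl1, 0.72 and 0.77 for Cacna1d, and 0.50 and 0.49 for Shox2. Igfbp5 missed the threshold among animals with Bmp10-high labelled left (adjusted p = 0.062), and Slitrk6 without dnPI3K-Mst1 1647 or Ntg 1657 or 1834 (0.068, 0.073 and 0.054). Adm kept its direction, at 0.84 in dnPI3K-Mst1 and 2.84 in Ntg (adjusted p = 5e-08). Among genes lower in Bmp10-high atria of Ntg mice, Ifi205, an interferon-inducible protein, differed by 0.09 in dnPI3K-Mst1 and -2.13 in Ntg (2.23, adjusted p = 1.8e-05), the chemokine Ccl11 by -0.02 and -2.04 (2.03, adjusted p = 4e-05) and the metalloprotease inhibitor Timp4 by -0.43 and -2.62 (2.20, adjusted p = 0.0001).

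Other genes differed between the atria in the double transgenic and not, or in the opposite sense, in Ntg. Inmt is given with them, though it was not called within dnPI3K-Mst1. Plet1, a placenta-expressed surface protein, read 8.11, 8.20, 8.38 and 8.90 in Bmp10-high against 6.73, 6.30, 6.80 and 6.73 in Bmp10-low atria of dnPI3K-Mst1 mice (1.76 ± 0.12, adjusted p = 0.00019). In Ntg it read 5.60 to 5.94 in Bmp10-high and 6.33 to 6.53 in Bmp10-low atria, so the genotypes differed by 2.40 (adjusted p = 1.3e-05). Against dnPI3K, where the difference was -1.79, the value was 3.55 (adjusted p = 6.4e-08), and in Mst1 mice the difference was 1.45, close to that of the double transgenic (0.30, adjusted p = 0.99). Penk, proenkephalin, ran the other way: -0.77 ± 0.14 in dnPI3K-Mst1 (adjusted p = 0.035) and 1.47 in Ntg (-2.24, adjusted p = 7.4e-06). Its call within dnPI3K-Mst1 was lost without 1509, 1649 or 1650 (adjusted p = 0.16, 0.19 and 0.13). Inmt, an N-methyltransferase, had 0.98 ± 0.32 in dnPI3K-Mst1 (adjusted p = 0.34, or 0.03 without 1650) and -1.38 in Ntg (2.36, adjusted p = 0.00092). Gdf6, with -1.79 in dnPI3K-Mst1, was at -2.02 in Mst1, -0.65 in dnPI3K and -0.10 in Ntg, and it differed from Ntg by -1.69 (adjusted p = 7.3e-05) and from dnPI3K by -1.14 (adjusted p = 0.0061). The membrane-binding protein Tc2n differed from Ntg by -1.91 (adjusted p = 1.9e-05) and from dnPI3K by -2.12 (adjusted p = 1.5e-05), and Cytl1 by -1.34 (adjusted p = 4e-05) and -1.03 (adjusted p = 0.0011). Dapk2, a death-associated kinase, was at -1.23 ± 0.10 in dnPI3K-Mst1 and -0.09 in Ntg (-1.14, adjusted p = 7.3e-05). In Mst1 mice the differences were 0.93 for Inmt, -0.81 for Tc2n, -0.77 for Cytl1 and -1.37 for Dapk2, in the same direction as in dnPI3K-Mst1, and 0.34 for Penk, and none of these 5 was called between dnPI3K-Mst1 and Mst1 (adjusted p = 0.25 for Penk and at least 0.99 for the others).

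**Figure D5:**
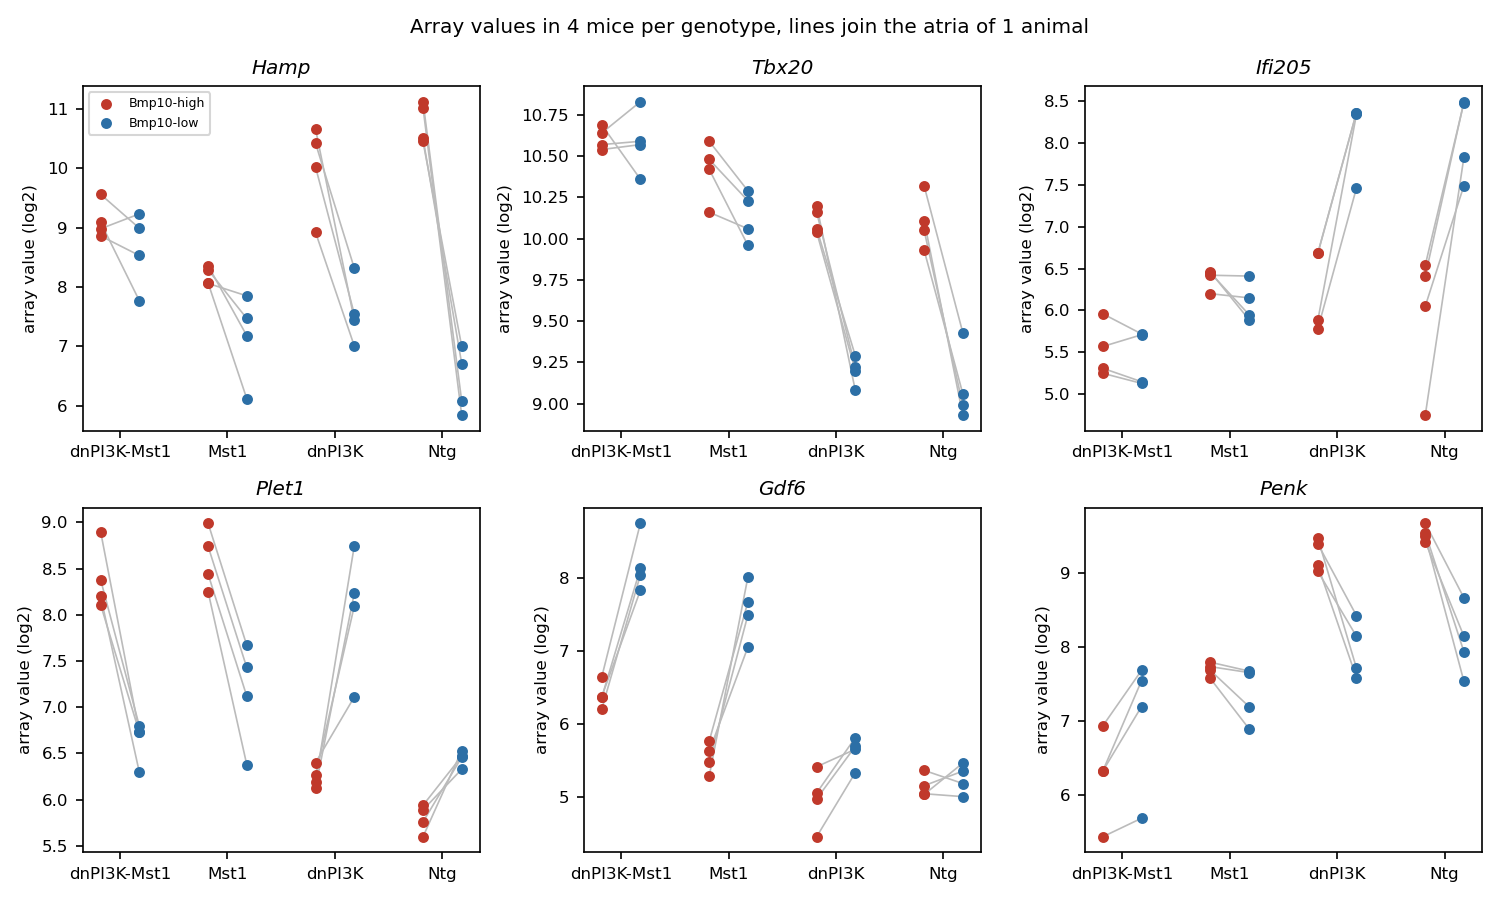
Array values (log2) of 6 genes in the Bmp10-high (red, left) and Bmp10-low (blue, right) atria of dnPI3K-Mst1, Mst1, dnPI3K and Ntg mice, 4 animals each, with lines joining the atria of an animal. In dnPI3K-Mst1 the atria overlap for Hamp, Tbx20 and Ifi205 and are apart for Plet1 and Gdf6, and the Penk values are lower in the Bmp10-high array of every animal.

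Genes of antigen presentation were among the calls between genotypes. Against Ntg 4 of 13 dendritic cell and MHC class II genes had a lower difference and 0 a higher one. Of all 15218 genes 0.999% were called, with 88 lower and 64 higher. The 4 were H2-Aa (-1.41, adjusted p = 0.012), H2-Ab1 (-1.54, adjusted p = 0.015), H2-Eb1 (-1.23, adjusted p = 0.014) and the invariant chain Cd74 (-1.40, adjusted p = 0.03). H2-Ab1 read 8.87, 8.35, 8.20 and 8.53 in the Bmp10-high arrays of dnPI3K-Mst1 animals 1509, 1647, 1649 and 1650, against 8.86, 9.65, 7.90 and 8.31 in their Bmp10-low arrays. The inflammatory Bmp10-low array of 1647 was the highest. Among animals with Bmp10-high labelled left none of the 4 was called (adjusted p = 0.15, 0.15, 0.30 and 0.20 in the order above). Without 1647 the values for H2-Ab1, H2-Eb1 and Cd74 were -1.17, -0.93 and -1.05 with adjusted p of 0.058, 0.052 and 0.11. Cd74 also fell short without dnPI3K-Mst1 1509 (0.073) or 1649 (0.051) and without Ntg 1301, 1657 or 1834 (0.085, 0.12 and 0.057), H2-Ab1 and H2-Eb1 without Ntg 1301 (0.056 and 0.055) or 1657 (0.077 and 0.058), and H2-Aa without Ntg 1657 (0.063).

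Against dnPI3K 1.06% of all 15218 genes were called. The calls leaned to a higher difference in dnPI3K-Mst1, with 112 higher and 50 lower (69.1% of them higher). The median of all genes leaned the same way, at 0.039 log2. The share of calls that were higher was 63.8% without dnPI3K animal 3241 and 77.7% without 1648. Of 28 immediate early genes 4 were called, all with a higher difference in dnPI3K-Mst1: Egr1, Ier2, Gadd45g and Socs3. Ier2 was at 0.03 ± 0.09 in dnPI3K-Mst1 and -0.92 in dnPI3K (0.95, adjusted p = 0.0021). Gadd45g (1.36, adjusted p = 0.044) and Socs3 (0.61, adjusted p = 0.036) were not called without dnPI3K-Mst1 1509, 1649 or 1650 or without dnPI3K 1507, 1648 or 1660 (adjusted p = 0.08 to 0.18 for Gadd45g and 0.069 to 0.16 for Socs3). Egr1, an early growth response factor, was at -0.08 ± 0.11 in dnPI3K-Mst1 and -1.50 in dnPI3K (1.42, adjusted p = 0.026), and its level varied between animals, at 9.49 and 9.44 in the Bmp10-high and Bmp10-low arrays of 1647 and at most 8.18 in those of the other 3. Its call was lost without dnPI3K-Mst1 1509, 1647 or 1650 (adjusted p = 0.071, 0.057 and 0.088) and without dnPI3K 1507 or 1660 (0.092 and 0.11). Of 18 endothelial and endocardial genes 4 had a higher difference and 0 a lower one. Npr3 was at 0.62 in dnPI3K-Mst1 and -0.22 in dnPI3K (0.85, adjusted p = 0.0055), while Flt1 (0.70, adjusted p = 0.026), the nitric oxide synthase Nos3 (0.72, adjusted p = 0.032) and the junction protein Esam (0.74, adjusted p = 0.049) lay nearer to the threshold. Esam was not called without any 1 of the 8 animals except dnPI3K-Mst1 1647 (adjusted p = 0.072 to 0.19), and Nos3 and Flt1 were not without dnPI3K-Mst1 1649 (0.11 and 0.092) or 1650 (0.12 and 0.086), nor without dnPI3K 1660 (0.14 and 0.11) or 3241 (0.12 and 0.10). Nos3 was also lost without dnPI3K 1507 (0.052) and Flt1 without dnPI3K-Mst1 1647 (0.057). Nrg1, the ERBB receptor ligand neuregulin, read 8.93 to 9.26 in Bmp10-high against 9.15 to 9.51 in Bmp10-low atria of dnPI3K-Mst1 (-0.28 ± 0.12, adjusted p = 0.56), while in dnPI3K the difference was -1.49 (1.21, adjusted p = 0.0061). These tests are not independent of each other, since the same 8 dnPI3K-Mst1 arrays enter each.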

How the data were processed

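Total RNA (100 ng per atrium) was hybridised to Affymetrix Mouse Gene 1.0 ST arrays, per the labels' protocols. The deposited values are log2 probe set signals. The submitters' processing notes name Affymetrix Expression Console and PLIER, without versions or roles. The values span 1.16 to 14.08, from which base 2 was inferred, and the genome build is not given in the sources used here. Of 35512 probe sets, 21789 carry 1 gene symbol in the platform annotation, 1621 several and 12102 none, and the first kind was used. Each of 19938 genes was represented by its brightest probe set, and 15219 with a mean of at least 4.48 log2 (the 30th percentile of probe sets) were kept. No array was left out and no further scaling applied.

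The members and the gene lists were chosen with earlier results of these data known, and Bmp10, which chose the arrays, was not tested. Limma 3.58.1 in R 4.3.3 fitted the 8 dnPI3K-Mst1 arrays with the animal as a block and a trended eBayes. Differences between genotypes came from all 32 arrays with the animal as a block and 1 Bmp10-high minus Bmp10-low term per genotype. Tests were two-sided, adjusted by the Benjamini-Hochberg method over 15218 genes. The atria are paired because the labels give both the same animal number, and an animal's deviations from the group means correlated at 0.40, 0.44, 0.10 and -0.01 in 1509, 1647, 1649 and 1650. Named genes are the 15 largest called differences in each direction, up to 4 called members per list, the 5 largest called differences between genotypes and a fixed set (among them Hamp, Nppa, Hcn4, Stk4 and Pik3ca); the text gives a selection. Genes outside this rule (Igfbp5, Slitrk6, Rgs6, Cpne5, Ccl11, Timp4, the MHC class II genes, Lyve1, Prox1, Nos3, Esam and others given for a list or an array) were named after their values were seen. The procedure was tested on simulated data. Alternatives covered the block, the filter, normalization, probe set choice, the variance model, the side labels and each animal left out. The files give no slide or scan batch.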

Additional observations from a re-analysis of the deposited data

Results flagged for a closer look

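Dixon's test was run on 180 groups of 4 arrays, the Bmp10-high or Bmp10-low arrays of dnPI3K-Mst1 mice. They cover the genes followed singly between the atria of these mice, whether called or not. Genes named only for a single array, such as Ucp1, were not included. In 12 groups an array lay far from the other 3, where chance gives about 1 in 20. In the Bmp10-high arrays these were animal 1650 for Ogn (10.11 log2, the others 10.37 to 10.41), Pdpn (6.99, the others 7.30 to 7.34) and Dsc2 (7.93, the others 8.31 to 8.39), animal 1647 for Col8a1 (8.35, the others 8.09 to 8.12) and animal 1509 for Pcsk6 (9.29, the others 8.84 to 8.87) and Ahsg (9.90, the others 9.78 to 9.79). In the Bmp10-low arrays they were animal 1509 for Thy1 (7.77, the others 7.45 to 7.49), Flt1 (8.83, the others 8.38 to 8.41) and Pdpn (8.08, the others 7.76 to 7.81), animal 1647 for Plet1 (6.30, the others 6.73 to 6.80), animal 1649 for Npr3 (10.21, the others 10.55 to 10.62) and animal 1650 for Shox2 (4.52, the others 4.19 to 4.24).

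The test of a difference between genotypes passed for these genes, with the Bmp10-high minus Bmp10-low difference of dnPI3K-Mst1 minus that of the other genotype in log2. Against Ntg the values were -3.87 for Hamp, 2.40 for Plet1, 2.36 for Inmt, -2.24 for Penk and 2.23 for Ifi205. Against dnPI3K they were 3.55 for Plet1, 2.59 for Inmt, -2.12 for Tc2n, -2.06 for Penk and 1.97 for Ifi205. Against Mst1 the value was 1.38 for Atp6v0a4. No explanation was tested.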

How the results depend on the processing

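The 168 calls between the atria of dnPI3K-Mst1 mice became 94 with no replicate block, so without the pairing by animal, and 57 to 201 with 1 animal left out. With animals 1647 and 1650 both left out, an alternative chosen after seeing the data, there were 448. The other 9 settings gave 144 to 238. Of 75 called genes followed singly, 27 missed the threshold with no replicate block, 35 without animal 1509, 4 without 1647, 20 without 1649 and 21 without 1650. For the differences between genotypes the counts with no replicate block were 63 against Ntg (152 with it) and 60 against dnPI3K (162 with it), with 1 animal left out 103 to 140 against Ntg, 102 to 166 against dnPI3K and 1 to 2 against Mst1. With arrays split by labelled side they were 0, 11 and 0 against Ntg, dnPI3K and Mst1, with 427, 978 and 279 genes at an unadjusted p under 0.05, and with only animals whose Bmp10-high array is labelled left 61 against Ntg. Under the labelled sides these differences from Ntg turned in sign: Hamp 0.38, Hamp2 0.40, Adm 0.79, Cacna2d2 0.13, Cpne5 0.08, Rgs6 0.01, Tbx20 0.05, Timp4 -0.68 and Pi16 -0.80. In Ntg the Bmp10-high array is labelled left in 2 animals and right in 2. Under the labelled sides the Ntg differences thus enter with opposite signs and largely cancel in the mean. The labelled split therefore does not test the differences from Ntg found with the Bmp10 split. Why the labels and Bmp10 disagree was not tested. Against dnPI3K the split itself is the same under both rules, and the alternative widens the spread, which is estimated over all 32 arrays. None of the 75 called genes changed sign within dnPI3K-Mst1 in the settings run, while values near 0 that were not called did, such as that of Tbx5.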

Other observations

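Some called genes outside the lists fall into small families, described after their values were seen. In Bmp10-high atria of dnPI3K-Mst1 mice the Eyes absent coactivators Eya1, Eya2 and Eya4 were higher (1.02 ± 0.09, 0.54 ± 0.09 and 0.64 ± 0.09 log2, SE, adjusted p = 0.0012, 0.021 and 0.01 by limma), each in 4 of 4 animals, while Eya3 was at -0.01 ± 0.08 (adjusted p = 1). Without animal 1509, 1649 or 1650 the adjusted p was 0.093, 0.068 and 0.095 for Eya2 and 0.089, 0.064 and 0.066 for Eya4. Glutamate receptor subunits were also higher, Gria4 at 5.39 to 6.31 in Bmp10-high against 4.35 to 4.88 in Bmp10-low arrays and Grin2c at 6.33 to 6.62 against 5.68 to 5.89. Grin2c ran the other way in Ntg (-0.51, with a genotype difference of 1.17 and adjusted p = 7.3e-05), and its call fell just short without 1509 (adjusted p = 0.051).

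Receptors for hormones and transmitters were called in both directions. The neuropeptide Y receptor Npy1r was higher by 0.95 ± 0.15 log2 (adjusted p = 0.02) and the incretin receptor Glp1r by 0.68 ± 0.09 (adjusted p = 0.0072), and the serotonin receptor Htr2b was at -0.93 ± 0.18 (adjusted p = 0.046). Npy1r fell short without 1509 or 1649 (adjusted p = 0.11 and 0.084), Glp1r without 1509 (0.062) and Htr2b without 1509 or 1650 (0.24 and 0.14). Dsc2, a desmosomal cadherin, was at 0.96 ± 0.17 in dnPI3K-Mst1 (adjusted p = 0.036) and -0.45 in Ntg (genotype difference 1.42, adjusted p = 0.00018), and fell short without 1509 or 1649 (adjusted p = 0.17 and 0.11). Ahsg, the liver glycoprotein fetuin A, read 9.78 to 9.90 in Bmp10-high against 8.65 to 9.29 in Bmp10-low arrays (0.95 ± 0.10, adjusted p = 0.002).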
